A study of Mus musculus with 8 samples.

Results

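The mouse potassium channel family was described here in isolated photoreceptor cells, as every gene on the array whose symbol starts with Kcn, apart from Kcnj10. The rule gave 97 genes with 155 probes, out of 22911 genes on the array that could be given a symbol, and each gene was followed through its brightest probe. The symbols take in the pore-forming subunits, their modifier and auxiliary subunits, and 4 noncoding transcripts named after channel genes. RNA came from photoreceptor cells of C57BL/6 mice at P8 (postnatal day 8), taken from the dissociated retina with an antibody against the surface protein CD73 and magnetic beads. Animals of one group were heterozygous for the Lpcat1 knockout allele (Lpcat1 HZ, 4 arrays) and those of the other were Lpcat1 knockout (Lpcat1 KO, 4 arrays). Lpcat1 encodes a lysophosphatidylcholine acyltransferase. Both groups descend from a C57BL6/N line crossed to C57BL6/J so that no animal was homozygous for the rd8 mutation of Crb1, and the HZ animals carry the knockout allele too, so no wild-type level was measured. The knockout was not restricted to one cell type. How many animals gave the RNA of an array is not given in the sources used here, so the p-values measure only the spread between these samples.

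Potassium channels let potassium leave the cell and so set the resting potential and repolarise it. In rods, an outward potassium current of the inner segment completes the loop of the dark current that enters the outer segment, and the silent subunit Kcnv2 is part of the channels that carry it. Loss of KCNV2 in people causes a cone dystrophy with a supernormal rod response. Other members mark other cells of the eye: Kcnj13 is the inward rectifier of the retinal pigment epithelium (RPE), Kcnk13 and Kcnn4 are known from microglia, and Kcnj8 from pericytes.

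Expression is given as log2 signal relative to the 75th percentile of the same array, so 0 is the brightness of the spot at that percentile, and differences are KO minus HZ on the log2 scale. Brightness depends on the probe as well as on the RNA, so an order of genes is an order of probe signals and not of transcript numbers. A probe counted as detected on an array where the scanner software called it well above background, and a gene was tested for a difference where its probe was detected on at least 4 of the 8 arrays. The cells carried rod transcripts, with means of 7.15 in HZ and 7.14 in KO for Nrl, the transcription factor of rod fate. The sort antigen Nt5e (CD73) gave 4.33 and 4.21. Lpcat1 itself read -0.81, -0.95, -1.02 and -1.17 on the HZ arrays 1 to 4 and -0.97, -1.16, -1.11 and -0.85 on the KO arrays 1 to 4, which overlap, with a difference of -0.04 ± 0.11 (SE) and an adjusted p of 0.931. The one Lpcat1 probe on the array therefore did not separate the groups, and where it lies relative to the deletion was not tested. Below, KO means the arrays labelled KO. All 8 arrays lay on 1 slide, KO in its first row and HZ in its second, so that slide row and genotype cannot be told apart. Between 59.5 and 64.6% of probes were well above background, no spot was saturated, and HZ array 4 had 458 spots marked non-uniform against 2 to 22 on the other HZ arrays and 4 to 25 on the KO arrays.

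Promoters are shown for the 3 genes with the largest lower mean values in KO among the detected members that had a single listed start, since the differences below turn on them. Each is the 250 bases before the annotated start, 5′ to 3′ on the gene's own strand, from RefSeq on GRCm38.p6, with CG dinucleotides in capitals.
Kcnq1ot1, chr7:143296548-143296797, minus strand: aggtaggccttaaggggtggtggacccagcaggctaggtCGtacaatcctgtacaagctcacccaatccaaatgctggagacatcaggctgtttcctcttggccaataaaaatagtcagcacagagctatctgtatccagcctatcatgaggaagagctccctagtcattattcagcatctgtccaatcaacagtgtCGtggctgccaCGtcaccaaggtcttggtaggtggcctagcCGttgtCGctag
Kcna5, chr6:126535556-126535805, minus strand: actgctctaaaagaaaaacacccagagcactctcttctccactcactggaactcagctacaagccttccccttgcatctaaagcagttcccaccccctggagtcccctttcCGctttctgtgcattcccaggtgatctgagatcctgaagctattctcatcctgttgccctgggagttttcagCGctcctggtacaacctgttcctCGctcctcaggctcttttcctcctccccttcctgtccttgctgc
Kcnj13, chr1:87394730-87394979, minus strand: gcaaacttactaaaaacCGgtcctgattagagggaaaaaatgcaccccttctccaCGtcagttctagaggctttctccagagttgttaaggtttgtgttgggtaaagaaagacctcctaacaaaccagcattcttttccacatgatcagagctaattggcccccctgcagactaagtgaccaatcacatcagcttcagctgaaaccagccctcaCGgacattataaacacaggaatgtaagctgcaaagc
The 3 windows hold 5, 3 and 3 CG dinucleotides in that order, against a median of 7 over the 96 promoters of the 71 members with an entry and 6 over all 32851 promoters. Kcnj13 was one of 2 members' promoters with the E-box CATGTG on either strand, a share of 2.08% against 12.3% of all promoters. The sequence TAATCC, on either strand the core of the site that the photoreceptor factor Crx is known to bind, occurred in the promoters of Kcnj9 and Kcnrg, again 2.08% of the members' promoters, against 6.25% of all. None of the promoters shown holds it. These are matches of letters in one window, and no binding was measured.

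As a family the potassium channel genes were dim. The median HZ level of the 97 members was -5.35, against -3.01 over all 22911 genes. The brightest probe was well above background on all 8 arrays for 36 members, on 1 to 7 arrays for 35 and on none for 26. In all, 51 members (52.6%) could be tested, against 14844 of the 22911 genes (64.8%). Among other channel families, 5 of 14 voltage-gated sodium channel genes (Scn, 35.7%), 19 of 26 calcium channel genes (Cacn, 73.1%) and 6 of 9 chloride channel genes (Clcn, 66.7%) were tested. Closest to the limit of 4 arrays were Kcnd3os, Kcng1, Kcnh1, Kcnj12 and Kcnk16, detected on 4, and Kcnd2, detected on 3. Mean HZ levels ran from -7.82 to -5.35 among the 46 members that were not tested, whose values carry little information beyond lying near background. HZ array 4 was the highest HZ array for 29 of these 46 members, and for 74.8% of all genes that were not tested. Its lowest signal called well above background was -5.10, against -5.89 to -5.44 on the other arrays. HZ means of dim members include this array.

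**Figure D1:**
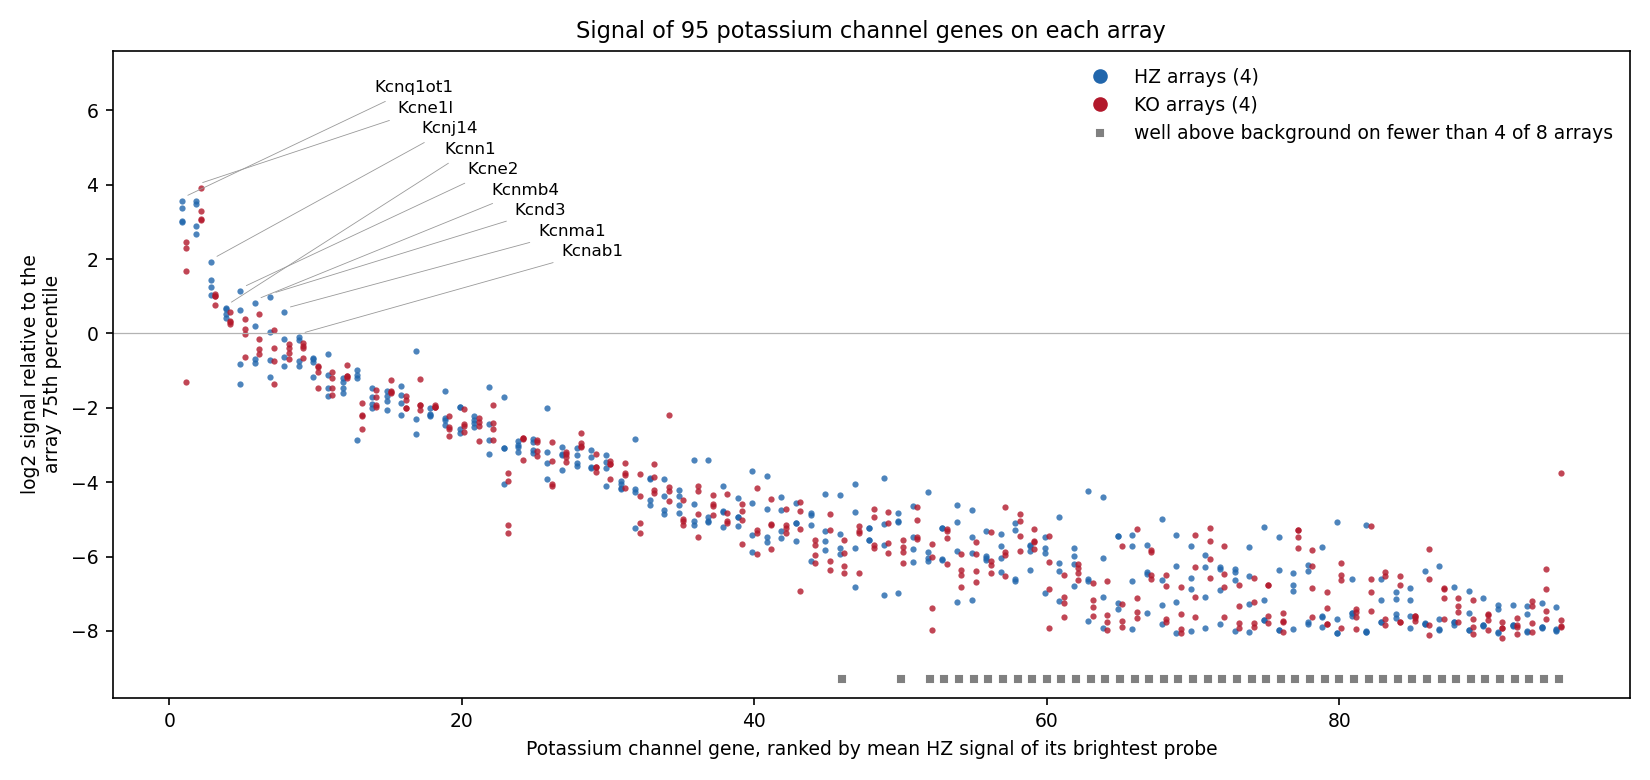
Signal of 95 potassium channel genes on each array, as log2 signal relative to the array's 75th percentile, against the rank of the gene's mean in HZ among the genes drawn. Blue points are the 4 HZ arrays, red points the 4 KO arrays, and grey squares mark the 46 genes detected on fewer than 4 arrays. Kcnq1ot1, Kcne1l, Kcnj14 and Kcnn1 have means above 0 in HZ, and the blue and red points of most genes lie over each other.

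Among the bright members, Kcnq1ot1, the long noncoding RNA of the imprinted Kcnq1 locus, averaged 3.23 ± 0.28 (SD, n = 4) in HZ. Kcne1l, an auxiliary subunit related to Kcne1, averaged 3.15 ± 0.44 (SD, n = 4), and the HZ values of these 2 genes overlapped. Kcnj14, a classical inward rectifier, followed at 1.41 ± 0.38, and Kcnn1, a small-conductance calcium-activated channel, at 0.57 ± 0.12 (SD, n = 4 each). The steps from Kcne1l to Kcnj14 and from Kcnj14 to Kcnn1 had no overlap between HZ arrays. From Kcnn1 on, every neighbouring pair down to rank 20 overlapped, so that order is not resolved.

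Below Kcnn1 came 5 genes with means just under 0 and wide spread. Kcne2, an auxiliary subunit, averaged -0.11 ± 1.18 (SD, n = 4) in HZ, from -1.35 on array 1 to 1.14 on array 3. Kcnmb4 and Kcnma1 are the accessory beta subunit and the pore of the large-conductance calcium-activated (BK) channel, and averaged -0.11 ± 0.77 and -0.27 ± 0.65. Kcnd3, the pore of a transient A-type channel, averaged -0.22 ± 0.94, and Kcnab1, a cytoplasmic beta subunit, -0.48 ± 0.39 (SD, n = 4 each). HZ array 2 was the highest HZ array for Kcnmb4 (0.82), Kcnd3 (0.97) and Kcnma1 (0.58). The same replicate number was the highest in both groups for 11 of the 51 tested members (21.6%) when the number was 2, among them Kcnd3, Kcnmb4, Kcne1l, Kcna5 and Kcnk1, against 23.7% of all tested genes.

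Kcnv2, the silent subunit of the rod inner segment channel, was detected on all arrays, at a mean of -2.30 ± 0.38 (SD, n = 4) in HZ. Its HZ values were -1.98, -2.56, -2.69 and -1.97 and its KO values -2.44, -2.66, -2.50 and -2.04. Both groups spanned almost the same range, and the difference was -0.11 ± 0.21 (SE), adjusted p = 0.89. Of the other 9 modifier subunits, which do not form channels alone, only Kcng1 and Kcng2 could be tested, at mean HZ levels of -5.00 and -3.31, while Kcns2, Kcns3 and Kcnv1 were detected on no array. Kcnh1, an ether-a-go-go channel proposed for the rod inner segment current, was near the limit of detection, on 3 HZ arrays and 1 KO array.

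The order of the members was nearly the same in the KO arrays: Spearman's correlation between the HZ and KO means was 0.954 over the 97 members, a description across genes that share the same probes in both groups. No member passed a 1.5-fold difference with an adjusted p under 0.5, in either direction, by limma with Benjamini-Hochberg adjustment over 34303 probes. Over all tested genes 1.13% passed in the lower and 0.330% in the higher direction. This call changed with the replicate number as a block, where 4 members (7.84%, against 2.94% of all tested genes) passed in the lower direction. Nor did any member pass 1.2-fold with an adjusted p under 0.05, where the share of all tested genes was also 0. At an unadjusted p under 0.05 there were 5 members of 51 (9.80%), against 9.30% of all tested genes. Of these, 3 had a lower mean in KO (5.88%, against 3.49% of all tested genes), namely Kcnq1ot1, Kcna5 and Kcnj14, and 2 a higher mean (3.92%, against 5.81%), namely Kcnab3 and Kcnb2. The methods' t-test on the same values put 4 members under 0.05 before adjustment (7.84%, against 11.4% of all tested genes). At the looser thresholds with adjusted values it again put 0 in either direction. Of all tested genes 1.13% passed there in the lower and 0.323% in the higher direction.

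By size, of the 51 tested members 31 (60.8%) lay within 1.2-fold, against 79.1% of all tested genes, and 5 (9.80%) differed by over 1.5-fold, against 5.01%. In the lower direction lay 31 members (60.8%), against 43.2% of all tested genes, and the median difference was -0.11 against 0.03. This median depended on the scaling: it was 0.0031 with quantile normalization between arrays, where the median of all genes was 0.03, and -0.017 after normexp background correction. It also depended on the filter. Well above background on all 8 arrays were 36 of the 51 tested members, against 13417 of the 14844 tested genes. Over these the median was -0.033 for the members and 0.035 for all genes. How far the sizes and directions follow from dim probes was not tested. The groups did not overlap, with KO below HZ, for 1 member, Kcnq1ot1 (1.96%, against 2.52% of all tested genes). KO lay above HZ without overlap for Kcnab3, Kcnn2 and Kcnb2 (5.88%, against 5.48%).

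**Figure D2:**
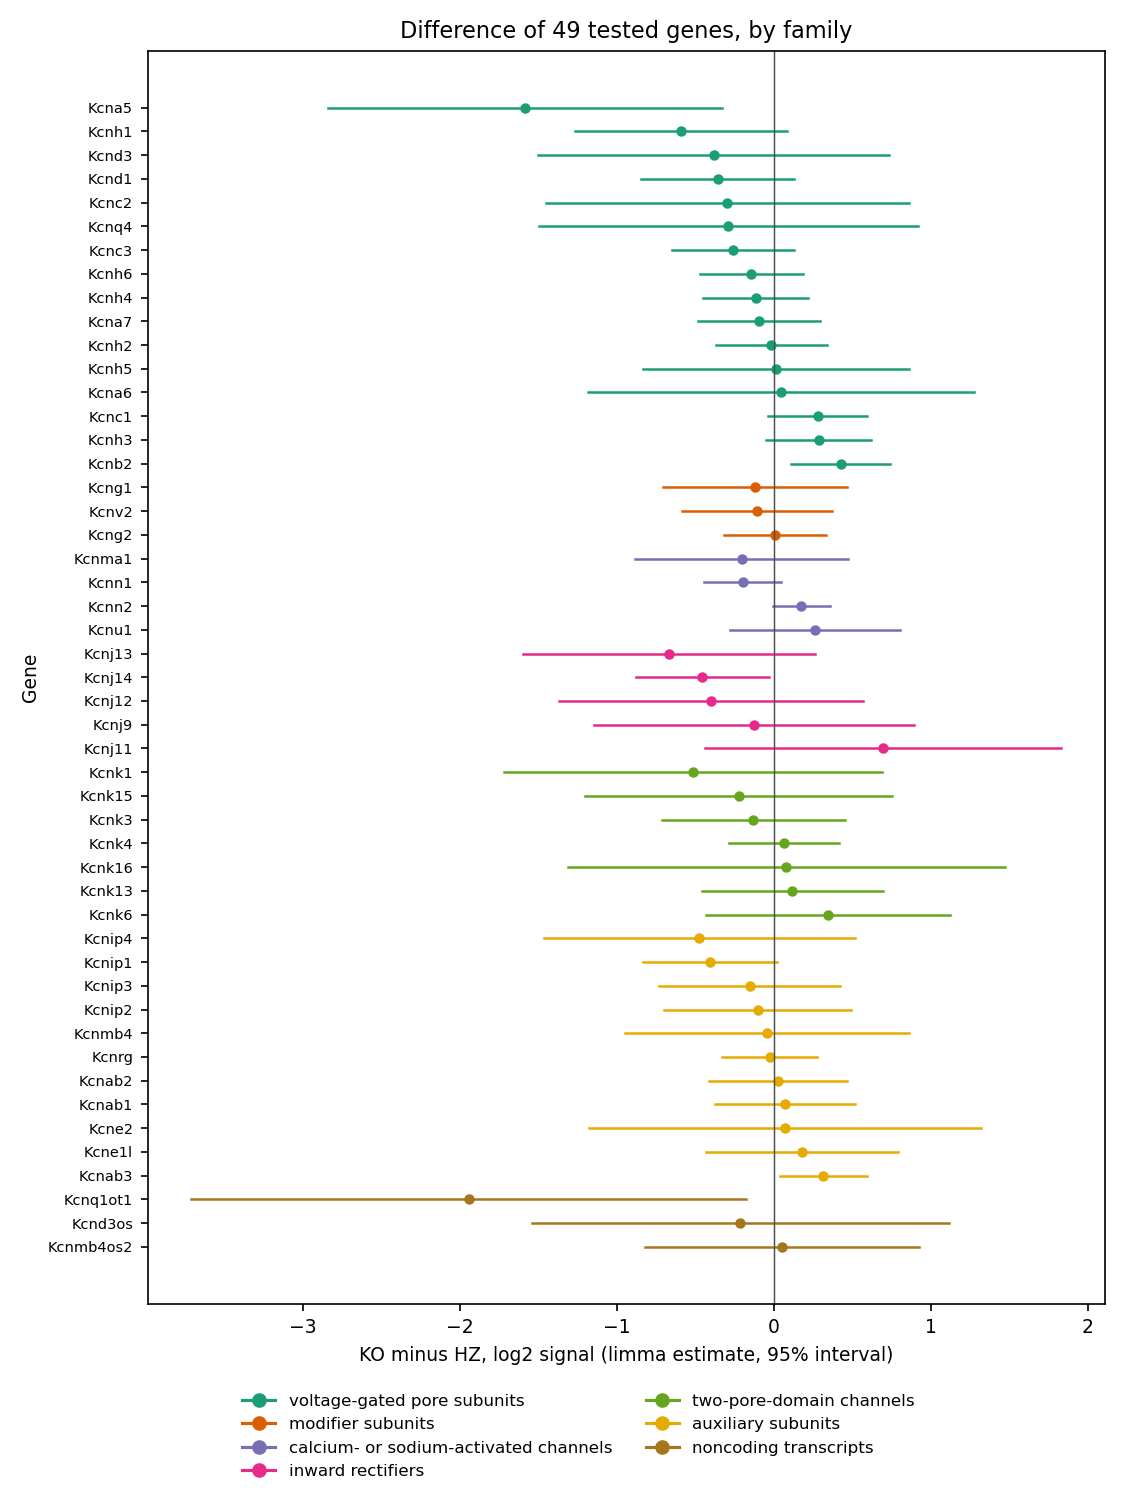
KO minus HZ difference of 49 tested potassium channel genes on the log2 scale, with the 95% interval of the limma estimate, ordered within 7 families given by colour. Most intervals cross 0, those of Kcnq1ot1 and Kcna5 reach furthest to the left, and Kcnb2 and Kcnab3 lie to the right of 0.

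Among the voltage-gated pore subunits 18 of 30 genes were tested, 12 with a lower and 6 with a higher mean in KO. Their median difference was -0.11.

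Kcna5, a delayed rectifier, had the largest difference of the group. It read -4.05, -1.71, -3.08 and -3.07 on the HZ arrays and -3.98, -3.75, -5.15 and -5.37 on the KO arrays. HZ array 2 stood highest, and HZ array 1 lay below 2 of the KO arrays, so the groups overlapped. The difference was -1.59 ± 0.54 (SE), adjusted p = 0.532. With the replicate number as a block the adjusted p was 0.361, which passes the looser pair of thresholds. Kcna5 was detected on 4 HZ arrays and 3 KO arrays.

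Kcnb2, another delayed rectifier, read -3.48, -3.10, -3.26 and -3.57 in HZ and -3.04, -3.04, -2.67 and -2.95 in KO. Each KO array was above each HZ array, by 0.43 ± 0.14 (SE) on average, and the adjusted p was 0.501. Kcnc1, a channel for fast repolarisation, differed by 0.28 ± 0.14 (SE), adjusted p = 0.64, and its 3 tested probes spanned 0.28 to 0.33. HZ array 2, at -1.54, kept its groups from separating, since the KO arrays lay at -1.58, -1.24, -1.59 and -1.55. Kcnh3, a relative of Kcnh1, also had a higher mean in KO, by 0.29 ± 0.15 (SE), adjusted p = 0.647, and by 0.18 without KO array 3.

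Kcnh1 gave -6.13, -4.88, -5.16 and -4.82 in HZ and -6.18, -5.55, -5.69 and -5.95 in KO. HZ array 1 sat among the KO arrays. The difference was -0.59 ± 0.29 (SE), with an adjusted p of 0.642, and of 0.385 with the replicate block. Without HZ array 4, the highest, it was -0.45, and without HZ array 1 it was -0.89. Kcnd3 differed by -0.38 ± 0.49 (SE), adjusted p = 0.83, and without HZ array 2 by 0.013. Of the 12 voltage-gated pore genes that were not tested, Kcnh7, Kcnc4, Kcna1, Kcna2 and Kcna10 were detected on no array, and Kcna3, a channel known from lymphocytes and microglia, on 1 HZ array.

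Inward rectifiers were the family with the lowest median difference, -0.40, but it rests on only 5 tested genes of 14. Kcnj14 read 1.92, 1.26, 1.03 and 1.45 on the HZ arrays and 1.05, 0.76, 1.01 and 1.00 on the KO arrays. The KO values were tight, and one of them, KO array 1, lay above the lowest HZ array. The difference was -0.46 ± 0.18 (SE), adjusted p = 0.592. A second, much dimmer Kcnj14 probe differed by -0.10. Without HZ array 1, the highest, the difference was -0.29.

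Kcnj13, the RPE channel, had a split HZ group. Its values were -0.99, -2.86, -1.13 and -1.19 on HZ arrays 1 to 4 and -2.18, -2.21, -1.87 and -2.57 on KO arrays 1 to 4. HZ arrays 1, 3 and 4 lay above all KO arrays, and HZ array 2 below all of them. The difference was -0.67 ± 0.40 (SE), adjusted p = 0.693, and without HZ array 2 it was -1.11 with an adjusted p of 0.201, past the looser thresholds. It also passed them with the replicate block, at an adjusted p of 0.493.

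RPE markers were set beside Kcnj13. Of 20 listed RPE genes (such as Rpe65 and Tyrp1) 18 were tested, and all 18 had a lower mean in KO, against 43.2% of all tested genes. For 9 of the 18 KO lay below HZ without overlap, against 2.52% of all tested genes. None of the 20 was undetected throughout. Rlbp1 is on this list and also on the Muller glia list, and its highest HZ value, 0.83, was on array 2. The linear signal of the 20 markers was summed, in units of the array's 75th percentile. Bright markers such as Dct, at a mean of 3.24 in HZ, weigh most in this sum. It was 45.7, 18.4, 29.4 and 26.6 on the HZ arrays and 16.2, 11.6, 14.4 and 8.76 on the KO arrays. HZ array 2, the lowest for Kcnj13, was also the lowest HZ array for the RPE sum, though still above every KO array. In a bulk sample fewer cells of a type and less RNA per cell cannot be told apart, and the part of RPE material in the Kcnj13 values was not tested.

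**Figure D3:**
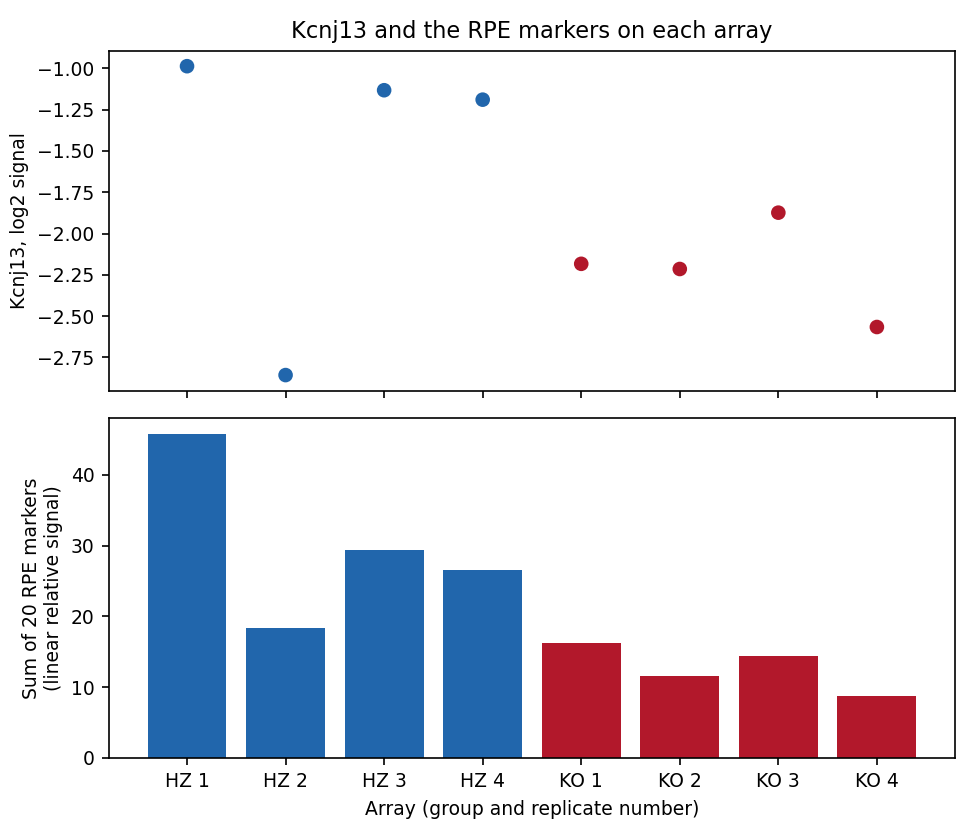
Kcnj13 (upper panel, log2 signal relative to the array's 75th percentile) and the summed linear signal of 20 RPE markers (lower panel, bars from 0) on each of the 4 HZ arrays (blue) and 4 KO arrays (red). HZ arrays 1, 3 and 4 are high in both panels, and HZ array 2 is the low HZ array in both.

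Kcnj12, a strong inward rectifier near the limit of detection, differed by -0.40 ± 0.42 (SE), adjusted p = 0.796, by -0.086 without HZ array 2 and by -0.67 without KO array 2. Kcnj11, the pore of the ATP-sensitive channel, had a higher mean in KO by 0.70 ± 0.49 (SE), which came from KO array 1 at -2.21 while the other KO arrays lay at -4.12, -4.51 and -4.25, within the HZ range of -4.84 to -3.92. This gene is named because its size was seen in the data. Kcnj2, a strong inward rectifier, read -6.77, -6.93, -7.95 and -6.44 in HZ and -5.77, -5.30, -5.27 and -5.47 in KO. These values do not overlap, but the probe was well above background on 1 KO array and on no HZ array, so it was not among the tested members. With no filter on dim probes the fitted difference was 1.57, with an adjusted p of 0.679, on HZ values near background. Kcnj8 was detected on 1 KO array only, and Kcnj1, Kcnj4, Kcnj5, Kcnj6, Kcnj15 and Kcnj16 on none.

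The 4 tested calcium- or sodium-activated channels, of 8, had differences from -0.20 to 0.26. Kcnn1 read 0.68, 0.66, 0.42 and 0.51 in HZ and 0.33, 0.26, 0.31 and 0.59 in KO, a difference of -0.20 ± 0.11 (SE) with an adjusted p of 0.667. Kcnn2, another small-conductance channel, read -2.21, -2.00, -2.16 and -2.20 in HZ and -1.92, -1.98, -1.98 and -1.99 in KO. Its groups did not overlap, but the gap between them was small and the difference was 0.18 ± 0.080 (SE), adjusted p = 0.622. Its second, dim probe differed by -0.12. Kcnma1 had 5 tested probes, all with a lower mean in KO and with differences from -0.68 to -0.20, and HZ array 2 was the highest array on each. For its brightest probe the difference was -0.20 ± 0.30 (SE), adjusted p = 0.852, and without HZ array 2 it was 0.080. Kcnn4, a channel of microglia and of blood cells, was detected on 1 array of each group, and Kcnn3 and Kcnt2 on none.

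Of the two-pore-domain channels, which give cells their leak current, 7 of 14 were tested, 3 with lower and 4 with higher means in KO. Kcnk5, Kcnk7, Kcnk9, Kcnk10, Kcnk12 and Kcnk18 were detected on no array. Kcnk3 was the brightest, at -1.21 ± 0.50 (SD, n = 4) in HZ. Kcnk1 read -5.23, -2.85, -4.20 and -4.27 in HZ and -5.09, -3.78, -4.38 and -5.36 in KO. Array 2 was the highest in each group and array 1 or 4 the lowest, and the difference of -0.52 ± 0.52 (SE) had an adjusted p of 0.787. It was -0.088 without HZ array 2 and -0.88 without HZ array 1. Kcnk13, known from microglia, differed by 0.12 ± 0.25 (SE), adjusted p = 0.9, and was detected on 3 HZ and 2 KO arrays. The 12 microglia markers of the list all had higher means in KO, with sums of 4.01 to 7.93 in HZ and 5.81 to 10.1 in KO. Of all 14844 tested genes 8437 had higher means. Without overlap there was 1 microglia marker, against 5.48% of all tested genes. Their part in the Kcnk13 values was not tested.

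Of the auxiliary subunits 11 of 17 were tested, 6 with lower and 5 with higher means in KO, and the median difference was -0.025. Kcnab3, a cytoplasmic beta subunit of voltage-gated channels, read -1.48, -1.21, -1.30 and -1.60 in HZ and -1.14, -0.86, -1.13 and -1.19 in KO. All KO arrays lay above all HZ arrays, by 0.32 ± 0.12 (SE) on average, adjusted p = 0.572. Without KO array 2, the highest, the difference was 0.24. Kcne1l read 2.89, 3.56, 3.48 and 2.67 in HZ and 3.04, 3.92, 3.30 and 3.07 in KO, which overlap, with a difference of 0.18 ± 0.27 (SE) and an adjusted p of 0.855. Kcne1, Kcne3 and Kcnmb3 were detected on no array.

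Kcne2 (0.07 ± 0.54), Kcnab1 (0.07 ± 0.19) and Kcnmb4 (-0.04 ± 0.39) had differences far inside their standard errors, with adjusted p of 0.976, 0.924 and 0.98. The sign for Kcnmb4 was positive, 0.049, after normexp correction. Among the calcium-binding partners of A-type channels, Kcnip1 differed by -0.40 ± 0.18 (SE, adjusted p = 0.622). Kcnip3, which also acts as a transcriptional repressor, differed by -0.15 ± 0.25 (SE, adjusted p = 0.869). For Kcnip3 the sign turned to 0.053 with quantile normalization. Kcnip2 and Kcnip4 had lower means as well, so that all 4 tested genes of this kind lay below 0 in the plot of differences, none past a threshold.

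Kcnq1ot1 had the largest difference of all members. Its brightest probe read 3.57, 3.02, 3.36 and 2.98 on the HZ arrays and 2.31, 1.68, 2.46 and -1.30 on the KO arrays. All KO arrays lay below all HZ arrays, and KO array 4 lay far below the other 3. The difference was -1.94 ± 0.77 (SE), adjusted p = 0.585, and -1.08 without KO array 4. With the replicate block the adjusted p was 0.385, past the looser thresholds. The 4 tested probes of this long transcript did not behave alike: the others differed by -0.32, -0.0064 and -1.01, and on the dimmest probe KO array 4 was again the lowest, at -3.57. On the third probe, with a mean difference near 0, KO array 4 read 0.91 against 0.97, 0.85 and 1.29 on the other KO arrays. The antisense transcripts Kcnd3os and Kcnmb4os2 differed by -0.21 ± 0.58 and 0.05 ± 0.38 (SE), and Kcnmb4os1 was detected on no array.

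**Figure D4:**
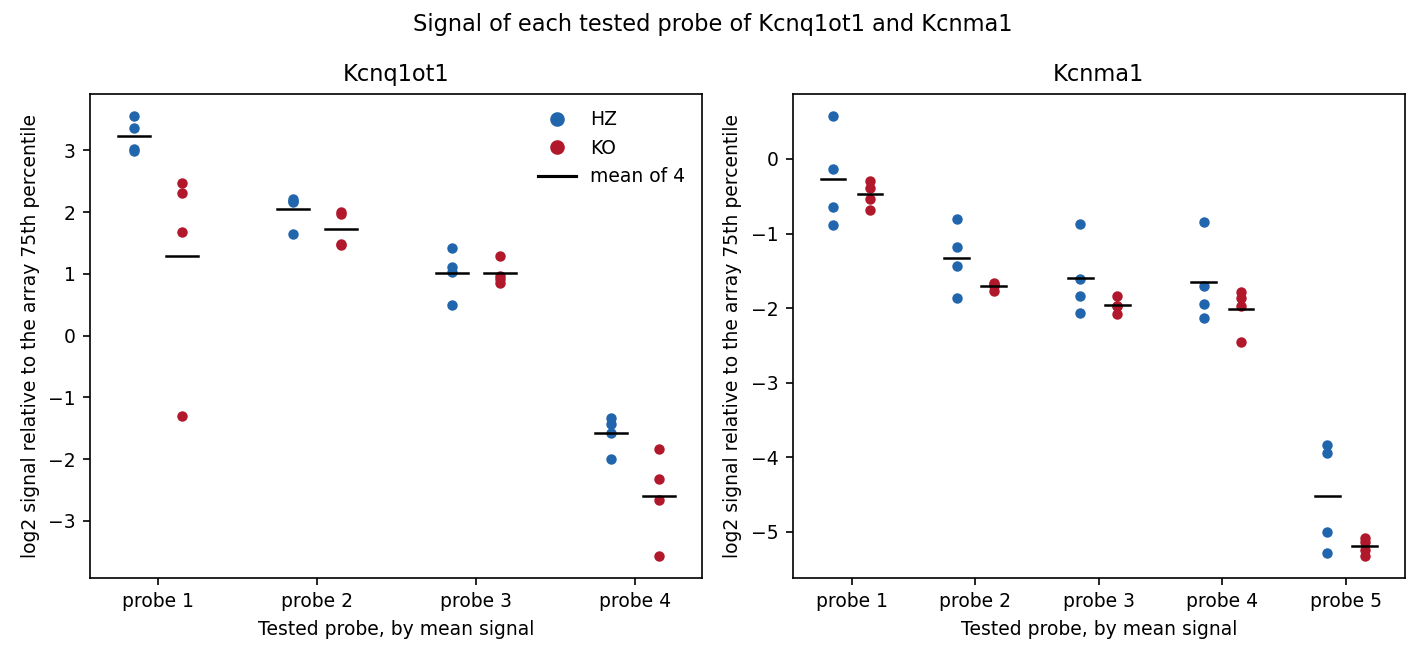
Log2 signal relative to the array's 75th percentile for each tested probe of Kcnq1ot1 (left, 4 probes) and Kcnma1 (right, 5 probes), ordered by mean signal, with HZ arrays in blue, KO arrays in red and the mean of 4 arrays as a black bar. The groups of Kcnq1ot1 part on probe 1 and overlap on probe 3, and the single low KO point of probe 1 at -1.30 is array 4, while for Kcnma1 HZ array 2 is the highest point on all 5 probes, with a second HZ array close to it on probe 5.

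When the replicate numbers, which pair the arrays of a slide column, entered the fit as a block, 10 of the 51 members (19.6%) had an unadjusted p under 0.05, against 12.5% of all tested genes. Lower in KO past 1.5-fold and an adjusted p under 0.5 were 4 members (7.84%), against 2.94% of all tested genes, namely Kcna5, Kcnj13, Kcnq1ot1 and Kcnh1. In the higher direction there was none, against 0.957%. Without HZ array 2 and with no block, 3 members passed in the lower direction (Kcna5, Kcnj13 and Kcnq1ot1, 5.88%, against 3.31% of all tested genes). In the higher direction 2 passed (Kcna6 and Kcnj11, 3.92%, against 1.41%). Kcna6 had no value on HZ array 3, so its HZ values there were only -2.31 and -2.70. With all arrays its difference was 0.044. At an unadjusted p under 0.05 the count ran from 3, without HZ array 1 or HZ array 4 (5.88%, against 7.44 and 7.92% of all tested genes), to 10, without HZ array 2 (19.6%, against 13.5%).

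**Figure D5:**
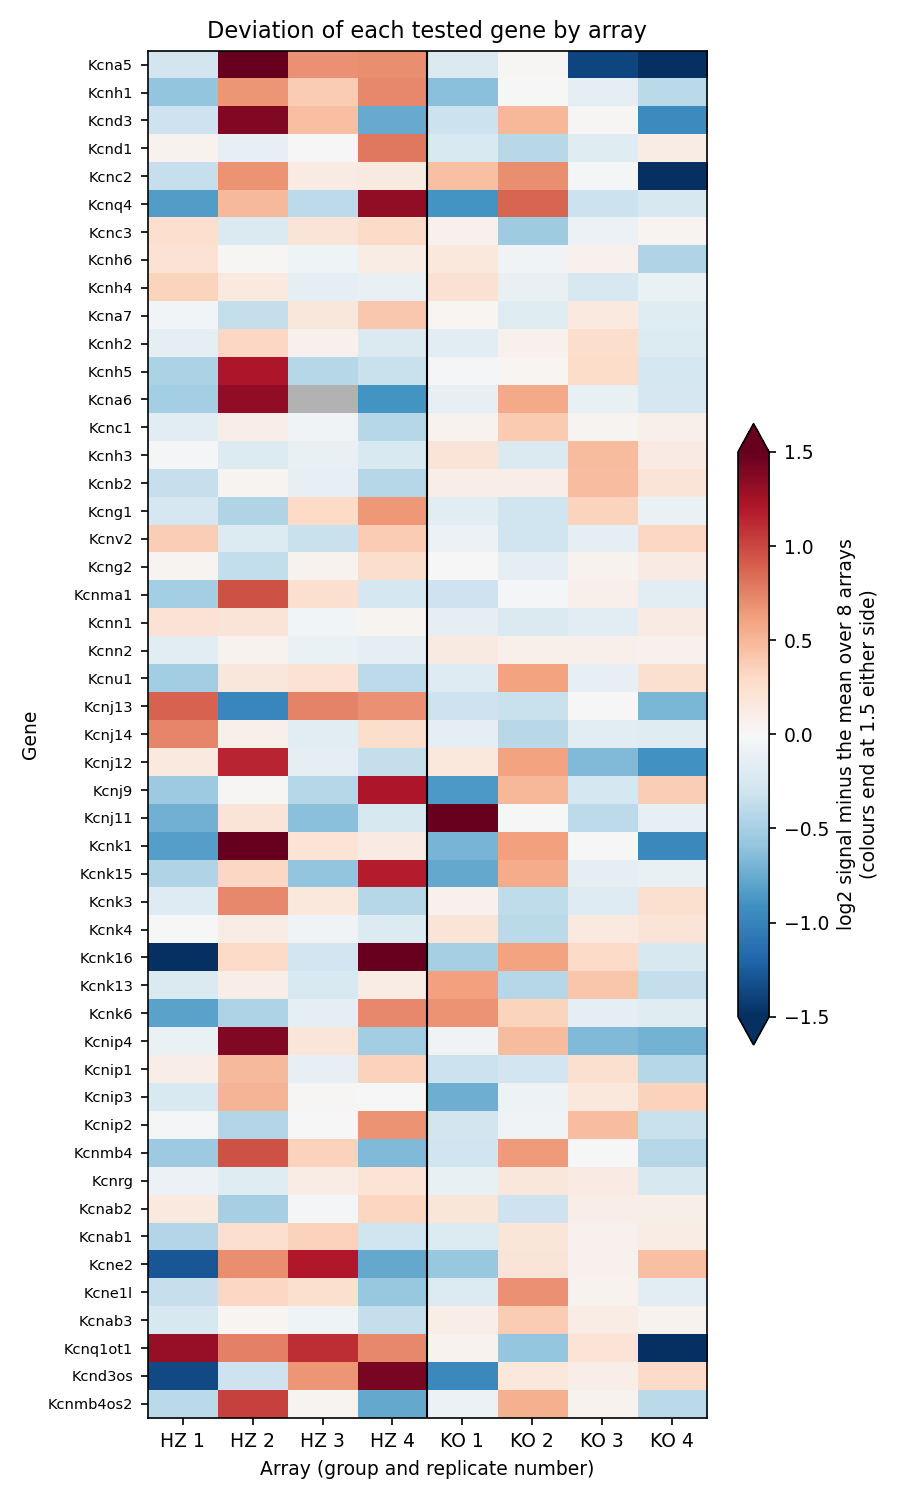
Deviation of each of 49 tested potassium channel genes from its own mean over the 8 arrays, on the log2 scale, with genes in rows by family and arrays in columns, red for higher and blue for lower, and grey for a spot left out as an outlier. HZ array 2 is red for Kcna5, Kcnd3, Kcna6, Kcnk1 and Kcnip4. KO array 2 is a paler red for Kcnd3, Kcna6, Kcnk1 and Kcnip4, while for Kcna5 it lies close to the gene's mean. The black line parts HZ from KO.

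Genes that carry the other ion currents of the photoreceptor give a setting for these values. A list of 25 such genes (cyclic nucleotide-gated channels, sodium pumps, exchangers, calcium and chloride channels) was tested in full, and 12 had lower and 13 higher means in KO. None passed an adjusted p under 0.05. At an unadjusted p under 0.05 there were 2 lower (Atp1b1 and Atp1b2) and 2 higher (Cngb3 and Clcn3). Of all tested genes 3.49% were lower and 5.81% higher at that p. KO lay above HZ without overlap for Cngb3, by 0.34 ± 0.12 (SE, adjusted p = 0.537), and for Clcn3, by 0.18 ± 0.073 (SE, adjusted p = 0.592). The groups of Atp1b1 overlapped. Without overlap, 5.48% of all tested genes lay above and 2.52% below. Atp1b2, the beta subunit of the rod sodium pump, read 5.79, 5.66 and 5.69 on HZ arrays 1 to 3 and 5.32, 4.52, 3.76 and 4.42 on the KO arrays, with the outlier spot of HZ array 4 left out. The groups did not overlap, and the difference was -1.21 ± 0.33 (SE), adjusted p = 0.448, past the looser thresholds in the fit without the replicate block, in which no potassium channel gene passed them.

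Markers of further cell types were measured beside these results. Of all tested genes 43.2% had lower means in KO, and 2.52% lay below HZ without overlap. All 7 bipolar cell markers had lower means in KO, none without overlap, with sums of 70.3 to 118 in HZ and 59.5 to 79.6 in KO. Of 13 rod markers 11 had lower means, with sums of 960 to 1191 in HZ and 936 to 1074 in KO. Of 9 tested Muller glia markers 7 had lower means, 1 of them without overlap, and Hes1 was detected on no array. Rlbp1 is counted in this list and in the RPE list. The Muller glia sums were 31.4, 38.3, 31.9 and 30.3 on the HZ arrays and 27.4, 37.3, 25.4 and 20.4 on the KO arrays. Array 2 was the highest in each group. Of 10 amacrine, horizontal and ganglion cell markers 4 were tested and Gad1, Nefl, Rbpms and Sncg were detected on no array, while of 8 vascular and pericyte markers 4 were tested and Abcc9, Cdh5 and Tek were detected on none. The part of these cells in the values of the potassium channel genes was not tested.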

How the data were processed

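Total RNA from CD73-positive cells was labelled with Cy3 and hybridised to 8 one-colour Agilent mouse expression arrays, 4 HZ and 4 KO. Per the labels the authors read them with Agilent Feature Extraction 10.7.1.1, and the deposited scanner files hold spot intensity after background correction, with flags for background and outliers. The deposited value table holds log2 values on the 75th percentile scale, centred on each probe's median, and served as an alternative only. Here, log2 of the processed intensity minus the array's own 75th percentile (882 to 1024 intensity units) was averaged over the spots of a probe, leaving out outlier spots. Signal over background limits the precision, and the number of arrays is 4 per group. Of 56605 probes 32994 were named through their accession in the RefSeq table of GRCm38.p6, and a gene is its brightest probe over the 8 arrays. Probes well above background on at least 4 of 8 arrays, with at least 3 values per group, were fitted with limma 3.58.1 (lmFit, eBayes) in R 4.3.3, and p-values were Benjamini-Hochberg adjusted over 34303 probes. The script was tested on simulated data. Fold 1.5 with adjusted p 0.5 and fold 1.2 with adjusted p 0.05 were taken from the study's methods.

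Replicate numbers pair the arrays: same-numbered deviations correlated at 0.164 to 0.337 in 4 of 4 pairs, different numbers at -0.340 to 0.118, and a number is a slide column. The main fit has no block. Alternatives were the block, quantile normalization, normexp correction (offset 50), another percentile base, other filters, eBayes with trend and robust moderation, the methods' t-test, the deposited processed values, the mean of a gene's probes and each array left out. Genes named are the 10 brightest in HZ, the 10 with the smallest p, those without overlap, and a list known from the retina. Some of these genes are not reported here, though counts over the family include them. The members and the lists were chosen with earlier results of these data known.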

Additional observations from a re-analysis of the deposited data

Results flagged for a closer look

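Among the 54 groups of 4 values of the named potassium channel genes, 4 held an array whose distance to its nearest neighbour was large for the range of the group, by Dixon's ratio at the 95% level, and chance alone would give about 1 in 20, or 2.7. For Kcnj13, HZ array 2 read -2.86 while the other HZ arrays lay between -1.19 and -0.99. For Kcnab3, KO array 2 read -0.86 while the others lay between -1.19 and -1.13. For Kcnc1, the same KO array read -1.24 while the others lay between -1.59 and -1.55. For Kcnn2, KO array 1 read -1.92 while the others lay between -1.99 and -1.98, a group with little spread of any kind.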

How the results depend on the processing

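The count of members lower in KO at 1.5-fold and an adjusted p under 0.5 was 0 in the reported fit and 4 with the replicate block. It was 2 each (Kcna5 and Kcnq1ot1, 3.92%) with normexp correction, with trend and robust eBayes and with the mean of a gene's probes. Of all tested genes 1.07% passed with normexp correction and 1.46% with trend and robust eBayes. With the mean of a gene's probes 237 of 14848 genes passed. The count of members lower in KO ran from 0 to 3 with single arrays left out, 3 being without HZ array 2. Without HZ array 1, HZ array 3, KO array 3 or KO array 4, no tested gene passed in either direction. The 0 for members in those fits therefore says nothing about the family. The count higher in KO ran from 0 to 2, and the count at an unadjusted p under 0.05, which was 5, was 10 with the replicate block and ran from 3 to 10 with single arrays left out. Under quantile normalization, another percentile base, both other filters, the authors' values and the methods' t-test, the counts at the looser thresholds were 0. Of all tested genes 0.0698 to 1.15% passed there in the lower direction and 0.0262 to 0.418% in the higher. The count at an unadjusted p ran from 4 to 6 in these settings (6.19 to 11.8%, against 5.72 to 11.4% of all tested genes). In the higher direction the block changed no call at the looser thresholds. The median difference ran from -0.16 to -0.027 over the arrays left out, within the spread of 0.13 between replicates of the members' median, and the median of all genes from 0.019 to 0.057 against 0.029. Signs turned for Kcnip3 (0.053, quantile normalization) and Kcnmb4 (0.049, normexp). With single arrays left out, the differences that changed sign ran from -0.062 to 0.20 for Kcnab1, -0.70 to 0.013 for Kcnd3, -0.016 to 0.32 for Kcne1l, -0.34 to 0.49 for Kcne2, -0.30 to 0.065 for Kcnip3, -0.064 to 0.28 for Kcnk13, -0.41 to 0.080 for Kcnma1, -0.27 to 0.27 for Kcnmb4 and -0.24 to 0.0012 for Kcnv2. The causes were not tested. Naming probes by the scanner files' own gene names was not run. For the 46 members that were not tested the signal lies too near background to give a difference.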
